A study of Canis lupus familiaris with 36 samples.

Results

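The BTK inhibitor Ibrutinib (Ibr) and the PI3K gamma inhibitor AS-605240 (AS) were compared directly with each other after 48 h in CLBL-1, a cell line from a canine diffuse large B-cell lymphoma. The members of the comparison were taken from the labels alone and are 6 of the 36 libraries of the series, 3 of cells given 1 μM Ibr and 3 of cells given 5 μM AS. Each group holds 1 library from each of passages p121, p126 and p128 of the line, and libraries were paired by passage. The whole series covers DMSO, Ibr, AS and Ibr + AS at 24, 48 and 72 h, and both inhibitors were dissolved in DMSO. The paper matched the DMSO concentration of the control cells to that of the combined treatment. For cells given a single inhibitor, it does not state the DMSO concentration. The 3 DMSO libraries at 48 h serve below to place each level, and the Ibr and AS libraries at 24 h and 72 h show the same contrast in other libraries. CLBL-1 is 1 line, so the replicates are passages and not dogs, and each inhibitor was used at 1 dose. The contrast is therefore one of these doses, not of the targets.

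BTK is a kinase just below the B-cell receptor, and it passes the signal on to phospholipase C gamma, to calcium and diacylglycerol, and to NF-κB. PI3K makes the membrane lipid PIP3, which recruits both BTK and AKT, and AKT in turn restrains the FOXO transcription factors. PI3K gamma is the form coupled mainly to G protein receptors and is best known from leukocytes, whereas PI3K delta is the form usually tied to the B-cell receptor.

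Reads on genes ranged from 10442839 to 11377939 in the Ibr libraries and from 11917010 to 12409213 in the AS libraries, so every Ibr library was shallower. A count of 3 reads corresponded to 0.236 to 0.286 CPM (the reads of a gene relative to a library size scaled by its TMM factor), and libraries within a group varied beyond read-sampling noise. In the column headers, sample-sheet numbers restart once, and the libraries of passage p126 lie on different sides of that restart, Ibr before it and AS after it. Over whole profiles, the mean Euclidean distance of log2 CPM between libraries of different passages was 84.5 between Ibr and AS, 85.8 within Ibr and 74.8 within AS, so the value between groups lay between the values within them. Ibr and AS libraries of the same passage were 81.2 apart. With fewer low-count genes (edgeR's filterByExpr), the value between groups was slightly above both, at 53.5 beside 52.9 within Ibr and 41.8 within AS. The paired B-cell marker DLA-DRA, an MHC class II chain, was at 2900 ± 546 CPM with Ibr and 2880 ± 203 with AS (SD, n = 3), and TNFRSF13C, the BAFF receptor, at 146 ± 13 and 118 ± 15.6. The other 8 of 10 B-cell markers had no symbol paired with an identifier.

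Few genes differed between the inhibitors. Among 18670 genes tested, 60 (0.321%) passed an adjusted p of at most 0.05 with an absolute log2 fold change (log2 FC, Ibr minus AS) above 1 in the quasi-likelihood test of edgeR, adjusted by Benjamini-Hochberg. Of these, 34 (0.182%) were higher with Ibr and 26 (0.139%) were lower. With no limit on the fold, 277 genes (1.48%) passed, 189 (1.01%) higher with Ibr and 88 (0.471%) lower. In all 60 genes the sign was the same in the 3 passages, beside 39.2% of the 10678 genes averaging 1 CPM or more, and in 55 the groups did not overlap, beside 19.2%. The 60 genes were selected on these same libraries, so both of these shares are largely built in and are a description only. In 4 of the 60, every library of one group held 3 reads or fewer. Leaving out a passage lowered these counts. Without passage p121 there were 54 genes, without passage p126 there were 28, and without passage p128 there were 22. A fit of the 6 libraries alone, with far fewer libraries to estimate the spread, gave 33, and a test against a log2 FC of 1 as the null gave 5. In bulk RNA, a change in the share of a kind of cell and a change of RNA per cell cannot be told apart.

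**Figure D1:**
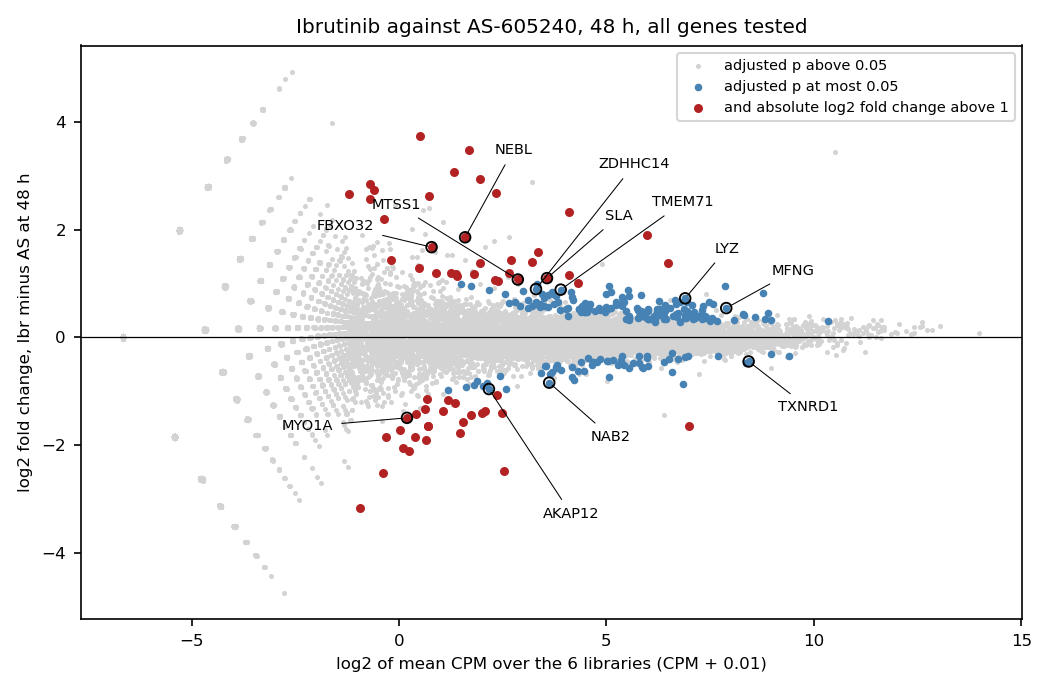
Log2 FC of Ibr minus AS at 48 h (vertical axis) against the log2 mean CPM over the 6 libraries (horizontal axis) for the 18670 genes tested. Red points are the 60 genes past the adjusted p and the fold limit, blue points pass the adjusted p alone, grey points pass neither, and black rings mark some of the genes named in the text. Red points lie mostly at low to middle levels, and genes with high CPM show small differences, with the exception of 1 grey point far to the upper right whose libraries disagreed.

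Gene symbols were paired with identifiers for 1068 of the genes tested, a part of the annotation that was not drawn at random, and results by gene name cover this part. Of these, 25 (2.34%) passed the adjusted p, 18 higher and 7 lower with Ibr, and 5 (0.468%) also passed the fold limit. Of the 25, 24 are described, and in all 25 the groups did not overlap. The selection on these same libraries largely builds this in. The genes are given by what their products do, with levels in the order of passages p121, p126 and p128. Counting did not state a strand, so reads of overlapping genes may be mixed. In RefSeq, 7 of the 25 overlap another protein-coding gene.

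The actin and membrane genes held the largest named rise. NEBL encodes nebulette, an actin-binding protein of the nebulin family. Its level was 6.03, 4.23 and 3.91 CPM with Ibr and 1.58, 1.50 and 0.821 CPM with AS. The lowest Ibr library was thus well above the highest AS library, and the log2 FC was 1.86 ± 0.24 (SE, adjusted p = 2.19e-06). MTSS1, which bends membranes and binds actin, was at 11, 8.73 and 9.83 CPM with Ibr and 4.15, 4.73 and 5.17 CPM with AS. Again no library of one group reached the other (log2 FC 1.07 ± 0.22, adjusted p = 0.00565). PARVG, a parvin that links integrin complexes to actin, was at 70.0, 74.2 and 69.4 CPM with Ibr and 51.8, 57.2 and 59.6 CPM with AS (log2 FC 0.34 ± 0.08, adjusted p = 0.0204). RAC2, a small GTPase of blood cells, was at 466, 570 and 486 CPM with Ibr and 392, 405 and 408 CPM with AS (log2 FC 0.34 ± 0.09, adjusted p = 0.044). For RAC2 the Ibr library of passage p126 stood above the other two, and that passage is the one whose libraries lie on different sides of the header restart. With the side of the restart as a term RAC2 had a log2 FC of 0.33 and no longer passed (adjusted p = 0.0689), and NCF4 (adjusted p = 0.0898) and SQSTM1 (adjusted p = 0.0509), both described below, were lost in the same way.

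Several genes of signalling below antigen receptors were higher with Ibr. SLA encodes an adaptor that damps antigen receptor signalling. It was at 18.4, 14.2 and 15.9 CPM with Ibr and 7.23, 7.25 and 8.13 CPM with AS, a log2 FC of 1.10 ± 0.14 (adjusted p = 2.19e-06). The AS libraries were close together and every Ibr library lay above them. In RefSeq's UU_Cfam_GSD assembly SLA overlaps TG, the thyroglobulin gene, which was nearly silent here, at 0.154 ± 0.104 CPM with Ibr and 0.106 ± 0.12 with AS (SD, n = 3). DEF6, an exchange factor for small GTPases in lymphocytes, was at 119, 104 and 109 CPM with Ibr against 88.8, 82.5 and 81.4 CPM with AS (log2 FC 0.39 ± 0.08, adjusted p = 0.00419). DGKA, the kinase that turns diacylglycerol into phosphatidic acid, was at 199, 196 and 200 CPM against 169, 154 and 160 CPM (log2 FC 0.30 ± 0.07, adjusted p = 0.0219). These differences were small in size, and the groups were again apart.

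FBXO32, the substrate receptor of an SCF ubiquitin ligase known as atrogin-1 and a textbook FOXO target, was at 4.47, 1.56 and 1.81 CPM with Ibr and 0.748, 0.866 and 0.821 CPM with AS. The log2 FC was 1.67 ± 0.34 (adjusted p = 0.00334). The Ibr library of passage p121 was much higher than the other two, and without that passage the log2 FC was 1.00 (adjusted p = 0.292).

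Enzymes, secreted proteins and membrane proteins made up the rest of the genes that were higher with Ibr. ZDHHC14, a palmitoyltransferase, was at 13.1, 11.8 and 13.6 CPM with Ibr and 7.23, 5.99 and 7.47 CPM with AS (log2 FC 0.90 ± 0.16, adjusted p = 0.000529). TMEM71, a transmembrane protein, was at 19.9, 19.4 and 18.7 CPM against 11.7, 9.14 and 10.6 CPM (log2 FC 0.88 ± 0.19, adjusted p = 0.00924). LYZ, the lysozyme gene, was at 140, 165 and 141 CPM against 97.9, 88.6 and 83.5 CPM (log2 FC 0.72 ± 0.12, adjusted p = 0.000525). In each of these the lowest Ibr library exceeded the highest AS library. MFNG, a glycosyltransferase that modifies Notch receptors, was at 262, 315 and 265 CPM against 174, 203 and 202 CPM (log2 FC 0.54 ± 0.10, adjusted p = 0.00173). AGPAT1, which makes phosphatidic acid in lipid synthesis, was at 54.6, 74.8 and 59.8 CPM against 39.9, 43.7 and 46.6 CPM (log2 FC 0.54 ± 0.11, adjusted p = 0.00289). In RefSeq, TMEM71 overlaps the far more abundant PHF20L1, at 133 ± 11.2 CPM with Ibr and 131 ± 4.88 with AS (SD, n = 3). AGPAT1 overlaps EGFL8, at 3.71 ± 0.852 CPM with Ibr and 3 ± 0.407 with AS. Neither partner passed, and mixing of reads was not tested. A further 4 of the 18 differed by less, and their groups did not overlap either. GOLM1, a Golgi glycoprotein, was at 99.0 ± 15.4 CPM with Ibr and 71.0 ± 5.63 with AS (SD, n = 3, log2 FC 0.48, adjusted p = 0.0241), and WFS1, a protein of the endoplasmic reticulum, at 124 to 158 CPM and 96.0 to 112 CPM (log2 FC 0.42, adjusted p = 0.0128). GRAMD4 had a log2 FC of 0.36 (adjusted p = 0.0273), and NCF4, a subunit of the phagocyte NADPH oxidase, also of 0.36 (adjusted p = 0.0413).

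**Figure D2:**
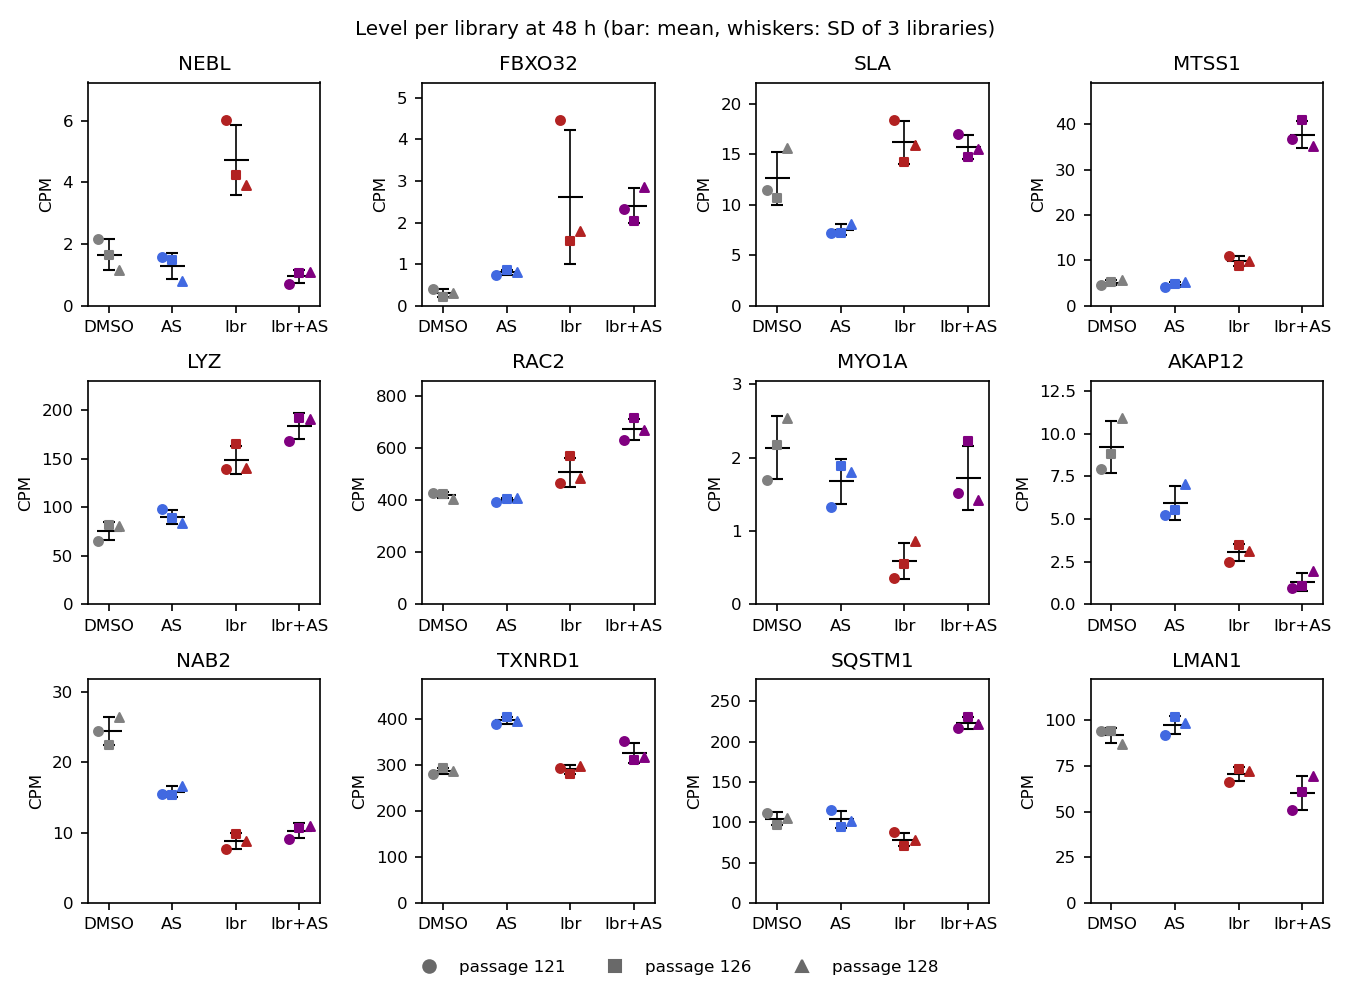
CPM per library at 48 h for 12 of the 25 genes, with DMSO, AS, Ibr and Ibr + AS on the horizontal axis of each panel. Marker shapes give the passage, the bar is the mean of 3 libraries and whiskers are the SD. In each panel the Ibr points do not overlap the AS points, while the DMSO points lie near AS for NEBL, near Ibr for TXNRD1, and beyond AS for NAB2 and AKAP12.

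Among the 7 genes that were lower with Ibr, MYO1A, a myosin known from the intestinal brush border, passed the fold limit. It was at 0.365, 0.551 and 0.859 CPM with Ibr and 1.33, 1.89 and 1.81 CPM with AS (log2 FC -1.50 ± 0.38, adjusted p = 0.0308), so it rested on few reads. AKAP12, a scaffold for protein kinases A and C, was at 2.47, 3.49 and 3.15 CPM with Ibr and 5.23, 5.51 and 7.06 CPM with AS (log2 FC -0.96 ± 0.22, adjusted p = 0.0102). NAB2, a corepressor of the EGR transcription factors and itself induced by them, was at 7.67, 9.83 and 8.87 CPM with Ibr and 15.5, 15.3 and 16.7 CPM with AS. Its groups were far apart beside the spread within them (log2 FC -0.84 ± 0.14, adjusted p = 0.000364). EGR1 itself, an immediate early gene, was at 110, 23.1 and 16.5 CPM with Ibr and 164, 79.6 and 109 CPM with AS. It was lower with Ibr in each passage, but passage p121 was the highest in both groups, the groups overlapped, and EGR1 did not pass (log2 FC -1.45 ± 0.52, adjusted p = 0.251).

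TXNRD1, thioredoxin reductase, was at 295, 280 and 299 CPM with Ibr and 391, 406 and 397 CPM with AS (log2 FC -0.45 ± 0.07, adjusted p = 0.000127). SQSTM1, the autophagy receptor p62, was at 87.3, 70.4 and 77.8 CPM with Ibr and 115, 93.6 and 102 CPM with AS (log2 FC -0.40 ± 0.10, adjusted p = 0.0335). Both are known targets of NRF2, the factor of the oxidative stress response. HMOX1, the heme oxygenase gene and another such target, lay the other way, at 9.31, 10.2 and 9.64 CPM with Ibr and 4.49, 4.88 and 5.34 CPM with AS, and did not pass (log2 FC 0.98 ± 0.43, adjusted p = 0.391). LMAN1, a lectin that carries glycoproteins from the endoplasmic reticulum to the Golgi, was at 66.3, 73.5 and 72.0 CPM with Ibr and 92.2, 102 and 98.4 CPM with AS (log2 FC -0.47 ± 0.11, adjusted p = 0.0161). LMNB1, a protein of the nuclear lamina, was at 587, 634 and 560 CPM with Ibr and 755, 770 and 734 CPM with AS (log2 FC -0.34 ± 0.08, adjusted p = 0.00886). No Ibr library reached an AS library in any of these genes.

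The largest differences among the genes named were in identifiers for which no symbol was paired. ENSCAFG00000009850 was at 6.12, 3.40 and 8.11 CPM with Ibr and 0.665, 0.394 and 0.493 CPM with AS (log2 FC 3.48 ± 0.34, adjusted p = 2.41e-09). ENSCAFG00000006264 was at 1.00, 1.75 and 2.58 CPM with Ibr and 6.81 to 12.7 CPM with AS, where 82, 127 and 155 reads were counted (log2 FC -2.48 ± 0.22, adjusted p = 1.94e-10). In neither gene did a library of one group reach the other. ENSCAFG00000008418 was at 0.457, 0.643 and 0.191 CPM with Ibr and 1.08, 1.89 and 2.79 CPM with AS (log2 FC -2.11 ± 0.41, adjusted p = 0.00173). It rested on 5, 7 and 2 reads in the Ibr libraries. Without passage p128 its log2 FC was -1.40 (adjusted p = 0.373), and its call was also lost without passage as a term (adjusted p = 0.23) and in the 6 libraries alone (adjusted p = 0.0838). ENSCAFG00000019993 was at 2.47, 1.65 and 3.82 CPM with Ibr and at 0.166, 0.158 and 0.246 CPM with AS, where no library held more than 3 reads. Its call was lost without passage p121 (adjusted p = 0.0528) and without passage p126 (adjusted p = 0.158).

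The 3 DMSO libraries at 48 h placed the differences. Their DMSO concentration was matched to the combined treatment, and a part of the DMSO amount in the differences from DMSO was not tested. These libraries are shared by the comparisons of Ibr and of AS with DMSO, so each comparison is given by its own values. Of the 25 genes, 15 rose and 5 fell with Ibr against DMSO at the adjusted p, where 10.7% of all genes tested passed. With AS 3 rose and 3 fell, where 3.65% of all genes passed. The 25 genes were selected on these same Ibr and AS libraries, so shares above those of all genes are partly built in. In 16 genes the change against DMSO passed with Ibr and not with AS, in 2 with AS and not with Ibr, in 4 with both in the same direction, and in 3 with neither. None of the 25 moved in opposite directions at the adjusted p in both, and neither did any other of the 18670 genes tested.

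NEBL was at 2.17, 1.65 and 1.16 CPM with DMSO, overlapping its AS libraries, and its log2 FC was 1.51 with Ibr (adjusted p = 3.05e-06) and -0.34 with AS (adjusted p = 0.706) against DMSO. In MTSS1, ZDHHC14, TMEM71 and LYZ the DMSO level was likewise nearer to AS than to Ibr, with a log2 FC against DMSO of 0.94, 0.91, 1.11 and 0.97 for Ibr and of -0.13, 0.02, 0.23 and 0.25 for AS. FBXO32 was lowest with DMSO, at 0.402, 0.225 and 0.308 CPM, and its log2 FC was 3.04 for Ibr (adjusted p = 8.24e-07) and 1.36 for AS (adjusted p = 0.178). In SLA and TXNRD1 the change against DMSO passed with AS and not with Ibr. SLA was at 11.5, 10.7 and 15.6 CPM with DMSO, and it fell with AS (log2 FC -0.74, adjusted p = 0.000598) while its difference with Ibr was 0.36 (adjusted p = 0.0697). TXNRD1 was at 281, 295 and 287 CPM with DMSO, which overlaps the Ibr libraries, and it rose with AS (log2 FC 0.47, adjusted p = 1.42e-05), beside 0.02 with Ibr (adjusted p = 1).

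GOLM1, GRAMD4, NAB2 and AKAP12 moved the same way with both inhibitors and farther with Ibr. NAB2 was at 24.4, 22.5 and 26.5 CPM with DMSO, and it fell with AS (log2 FC -0.63, adjusted p = 0.0008) and with Ibr (log2 FC -1.47, adjusted p = 8.05e-11). AKAP12 was at 7.95, 8.79 and 10.9 CPM with DMSO, with a log2 FC of -0.63 for AS (adjusted p = 0.0266) and -1.59 for Ibr (adjusted p = 1.5e-07). GOLM1 rose by a log2 FC of 0.61 with AS (adjusted p = 0.00135) and 1.09 with Ibr (adjusted p = 1.75e-08), and GRAMD4 by 0.38 (adjusted p = 0.0117) and 0.74 (adjusted p = 1.28e-07). WFS1, NCF4 and LMNB1 passed against DMSO with neither inhibitor, and their group means with DMSO lay between those with AS and Ibr. Over the 60 genes past the fold limit, the DMSO mean was lowest in 25 (41.7%), between in 21 (35%) and highest in 14 (23.3%). Over all genes averaging 1 CPM or more, these shares were 40.4%, 23.7% and 36%. The DMSO mean was highest in 0 of the 34 genes higher with Ibr and lowest in 1 of the 26 lower with Ibr. Among all genes averaging 1 CPM or more, it was highest in 25.3% of those higher with Ibr. It was lowest in 30% of those lower with Ibr. The 60 genes were selected for a large difference between Ibr and AS, with a median absolute log2 FC of 1.53 beside 0.119. A control beyond Ibr is thus less likely among them, and these gaps are partly built in.

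**Figure D3:**
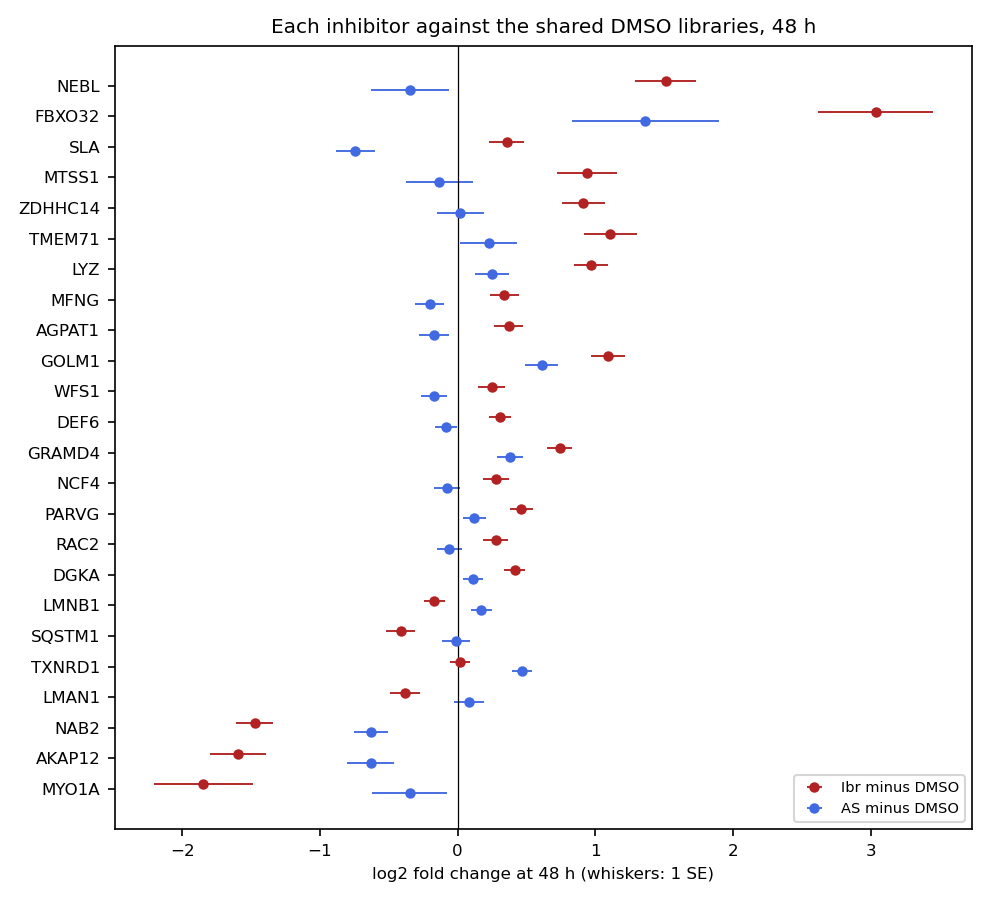
Log2 FC at 48 h of Ibr minus DMSO (red) and AS minus DMSO (blue) for 24 of the 25 genes, with whiskers of 1 SE. Both series share the same 3 DMSO libraries. Red points lie farther from 0 than blue points for most genes, with SLA and TXNRD1 as the genes where blue lies farther and passed the test.

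The same contrast was made in other libraries at 24 h and 72 h, which come from the same passages. At 24 h 34 genes (0.182%) passed the fold limit and at 72 h, with 2 Ibr libraries because replicate 3 was left out, 85 (0.455%) did. Of the 60 genes found at 48 h, 57 had the same sign at 24 h and 57 at 72 h, beside 71.9% and 60.2% of those averaging 1 CPM or more. At the adjusted p, 24 of the 60 passed in the same direction at 24 h, where 0.578% of all genes tested passed, and 28 at 72 h, where 1.99% did. At all 3 times 15 passed. All 25 genes kept their sign at both other times. Of these, NEBL, TMEM71, LYZ, AGPAT1, NAB2, TXNRD1 and LMNB1 passed at 24 h. NEBL, SLA, ZDHHC14, MFNG, GOLM1, DEF6, NCF4, PARVG, NAB2 and SQSTM1 passed at 72 h.

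NEBL had a log2 FC of 1.50 at 24 h (adjusted p = 0.000229) and 2.53 at 72 h (adjusted p = 2.02e-08), and NAB2 of -0.65 (adjusted p = 0.018) and -1.26 (adjusted p = 3.73e-07). AKAP12 differed by -0.65 at 24 h and by -0.02 at 72 h, where neither passed. A change of the contrast with time was tested as a difference of differences. Between 24 h and 48 h 0 genes passed in edgeR, where 346 (1.85%) had an unadjusted p under 0.05, and 0 passed in DESeq2, where 210 had. Between 48 h and 72 h 0 passed in edgeR, where 982 (5.26%) had an unadjusted p under 0.05, and 0 in DESeq2, where 828 had. For AKAP12 the log2 FC of Ibr minus AS differed by 0.94 ± 0.30 between 72 h and 48 h (adjusted p = 0.714), and for SLA by 0.58 ± 0.20 between 48 h and 24 h (adjusted p = 1).

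**Figure D4:**
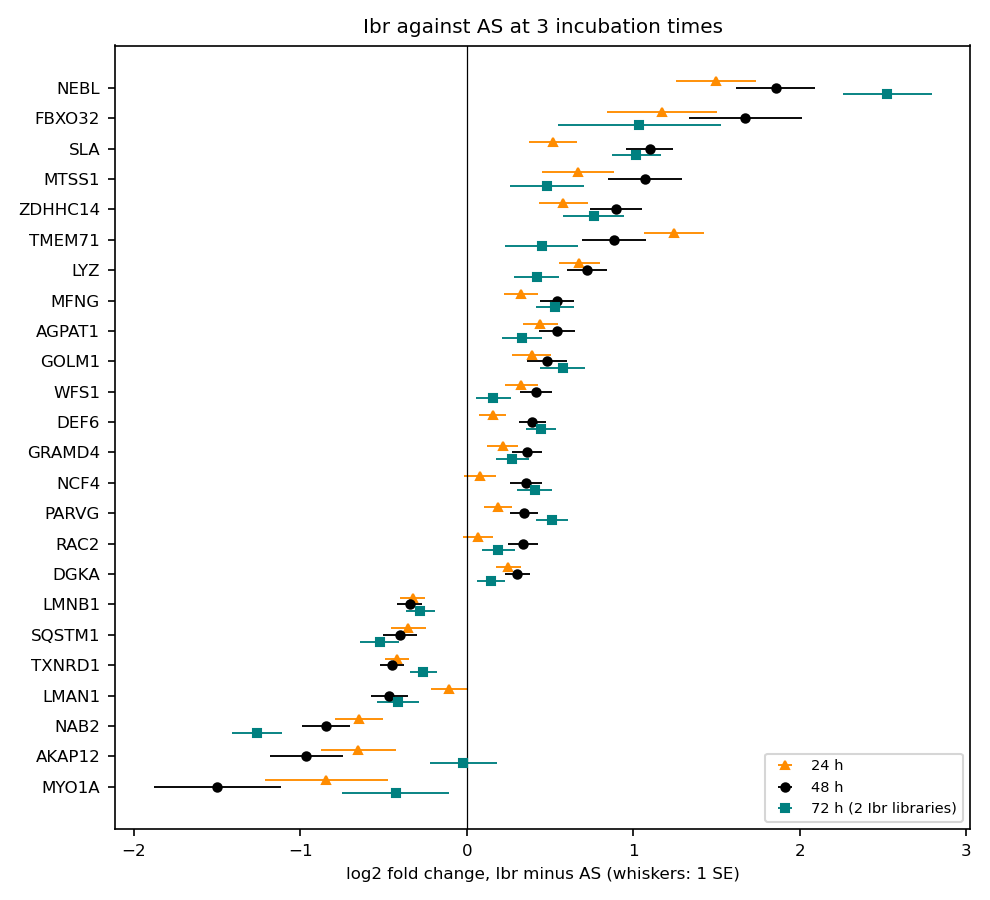
Log2 FC of Ibr minus AS for 24 of the 25 genes at 24 h (orange triangles), 48 h (black circles) and 72 h (teal squares, 2 Ibr libraries), with whiskers of 1 SE. All points of a gene lie on the same side of 0, though AKAP12 is close to 0 at 72 h and NCF4 and RAC2 are close to 0 at 24 h.

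Gene lists were read against the 1.48% of all genes that passed the adjusted p and the median log2 FC of -0.000417 over all genes tested. Only paired genes can be counted in a list, and of the 1068 paired genes 2.34% passed. The lists were chosen with earlier results of these data known, so their counts are a description and not a test. Of the B-cell receptor and PI3K list, 12 of 39 genes were paired, and DGKA, DEF6 and RAC2 rose, with a list median of 0.08. INPP5D, the phosphatase SHIP1, was at 798 CPM with Ibr and 803 CPM with AS, and MALT1, a protease on the way to NF-κB, at 52.2 and 51.0 CPM. PIK3R1, the regulatory subunit p85 alpha, had a log2 FC of -0.02 ± 0.08 (adjusted p = 1). Of 12 paired genes of mTOR and FOXO signalling, FBXO32 passed. SGK1, a kinase close to AKT, was at 37.9 and 55.1 CPM (adjusted p = 0.394).

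The actin and adhesion list had 29 of 30 genes paired, and NEBL, MTSS1, PARVG and RAC2 rose while AKAP12 fell. Its other 24 genes, such as the myosin heavy chain MYH9 (log2 FC 0.20, adjusted p = 0.376) and ezrin, EZR (0.07, adjusted p = 0.876), did not pass, and the list median was 0.07. The heme and oxidative stress list had 12 of 17 paired, with TXNRD1 and SQSTM1 lower and a median of -0.15. Of 7 paired immediate early genes NAB2 passed. No gene passed among the 18 paired of NF-κB signalling, 24 of the cell cycle, 24 of the ribosome, 25 of mitochondrial energy production, 30 chromatin and transcription regulators, 14 cytokines and their receptors, 12 of the integrated stress response, 8 of antigen presentation, 7 of the p53 pathway, 6 of hypoxia and glycolysis and 4 of sterol synthesis. The medians of these lists lay between -0.14 and 0.12. The sterol gene ACAT2 came nearest, with 191 CPM with Ibr and 239 CPM with AS (log2 FC -0.32, adjusted p = 0.0727). Of a list of 48 genes that the study itself named, 6 were paired. None of the 6 passed, and that list was chosen on these samples. The study's main candidates PAG1, PRKAR2A, ACACA, FOS and PRKCA were not paired, so they could not be read here. MYC had a log2 FC of 0.33 ± 0.10 (adjusted p = 0.0927) and DSE of 0.25 ± 0.08 (adjusted p = 0.105). MYC passed with DESeq2 (adjusted p = 0.0463), in the 12 libraries at 48 h (adjusted p = 0.019) and with the side of the header restart as a term (log2 FC 0.41, adjusted p = 0.0139). DSE passed with DESeq2 (adjusted p = 0.0119), in the 12 libraries (adjusted p = 0.0365) and with the filterByExpr filter (adjusted p = 0.0486). The log2 FCs of MYB, BCL2 and NHSL1 were -0.0028, -0.06 and -0.24.

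Markers of other cells were checked because LYZ and NCF4 also mark myeloid cells. Of 9 myeloid markers 5 were paired, and their summed level was 340 to 420 CPM with Ibr, 261 to 265 CPM with AS and 248 to 279 CPM with DMSO. LYZ and NCF4 made up most of the sum. TREM2 was at 0 in all 6 libraries, ARG1 at 3 to 8 reads, and CSF2RB at 12.4 ± 0.959 CPM with Ibr and 10.2 ± 1.15 with AS (SD, n = 3, adjusted p = 0.54). The part of other cells in these values was not tested. The 6 paired T and NK cell markers summed to 0.822 to 1.19 CPM with Ibr and 0.332 to 0.657 CPM with AS, with IFNG and IL13 at 0. The 7 melanocyte, epithelial and stromal markers summed to 18.8 to 22.2 CPM and 18.9 to 22.4 CPM.

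How far the named genes held up was recomputed under 13 other settings that test for any difference. The direction of all 25 was kept in each of them. All 25 had the same sign in the 3 passages to begin with, so these settings could hardly reverse it. NEBL and SLA passed the adjusted p in every one of the 13, as did ENSCAFG00000009850 and ENSCAFG00000006264. The other 23 of the 25 lost the call in at least 1 setting, most often when a passage was left out. Without passage p121, 9 of the 25 passed (NEBL, SLA, MTSS1, ZDHHC14, TMEM71, LYZ, MFNG, AGPAT1 and TXNRD1). Without passage p126, 6 passed (NEBL, FBXO32, SLA, DEF6, NAB2 and TXNRD1), and without passage p128, 8 passed (NEBL, FBXO32, SLA, ZDHHC14, LYZ, MFNG, AGPAT1 and NAB2). In the 6 libraries alone 11 passed, and without passage as a term 20 did. With glmTreat, which tests against a log2 FC of 1, 0 of the 25 passed (adjusted p = 0.248 for NEBL and 1 for SLA), while ENSCAFG00000009850 (adjusted p = 1.97e-05) and ENSCAFG00000006264 (adjusted p = 3.66e-05) did.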

How the data were processed

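The authors enriched poly-A RNA, sequenced it as single-end reads, mapped these to CanFam3.1 with STAR 2.7.5a and deposited raw read counts per Ensembl gene. Which strand column was kept is not given in the sources used here. The table holds 30424 genes and 36 libraries, and 10442839 to 12409213 reads per library lie behind the comparison. P-values of the main fit rest on the spread left after the passage and group terms. This spread was estimated over the 35 libraries fitted, all of 1 line, and not within the compared groups alone.

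edgeR 4.0.16 (R 4.3.3) was run on the counts with TMM factors, genes with at least 2 reads (18670) and robust quasi-likelihood fits with passage and group as terms over 35 libraries. Ibr 72 h replicate 3 was left out, as in the study. The quasi-likelihood method with adjusted deviances was used because, on simulated data, edgeR's older method made more false calls. P-values were adjusted by Benjamini-Hochberg over all genes, with limits of 0.05 and an absolute log2 FC of 1. SE is the log2 FC divided by the square root of F. Symbols came from the study's supplementary tables (1068 pairs), and overlaps of genes from RefSeq's UU_Cfam_GSD assembly, from which no coordinate was taken. Named genes were the 15 with the largest change in each direction past the adjusted p, list members past it, genes the study named and up to 2 identifiers a direction. Of these, 1 gene past the adjusted p is not reported here.

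Same-numbered Ibr and AS libraries share a passage, and their deviations from group means correlated with r of 0.389, 0.2 and 0.148 over 10785 genes. The libraries compared were taken from the labels, while the gene lists and marker lists were chosen with earlier results of these data known. Alternatives used DESeq2 1.42.0, RLE factors, other filters, other sets of libraries, glmTreat, no passage term, the header restart as a term, each passage left out and, added after seeing the data, the older edgeR method.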

Additional observations from a re-analysis of the deposited data

How the results depend on the processing

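The count of genes past the adjusted p and the fold limit (60, 34 higher and 26 lower with Ibr) was 33 (21 and 12) in the 6 Ibr and AS libraries alone and 5 (3 and 2) with glmTreat, which tests against a log2 FC of 1. Leaving out a passage gave 22 to 54 genes, 15 to 30 higher and 7 to 24 lower. Without the replicate block it was 41, with 17 lower. Of the 60 genes, 41 were shared without the replicate block, 54 with DESeq2 and 56 with the header restart as a term. The other alternatives gave 59 to 73 genes. Without a limit on the fold, 277 genes passed, 595 in the 12 libraries at 48 h, 127 in the 6 libraries alone, 409 with DESeq2, and 56 to 161 when a passage was left out. Fewer libraries leave fewer degrees of freedom, and the cause of the rise in the 12 libraries was not tested. The changes of the contrast with time called 0 genes in each alternative run.

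The ratio of the distance between same-passage Ibr and AS libraries to that within groups was 1.01, and 1.04 with edgeR's filterByExpr and 1.05 on rlog values. Between different passages, the distance between Ibr and AS lay above both values within groups with filterByExpr. On rlog values it lay between them (20.6, beside 20.7 within Ibr and 14.4 within AS). With filterByExpr, which tests fewer genes, 1 gene passed in the list of chromatin and transcription regulators and 1 (DSE) among the genes the study named. DSE and MYC each passed in 3 alternatives. Of the genes that did not pass, MYB changed sign with DESeq2 (0.0098), RLE factors (0.01), filterByExpr (0.0054), all 36 libraries (2e-04) and the 6 libraries (0.0077), and when a passage was left out it lay between -0.023 and 0.027. On leaving out a passage, BCL2 lay between -0.12 and 0.045 and PIK3R1 between -0.084 and 0.035. Depth limits genes near 3 reads per library, 0.236 to 0.286 CPM, where no difference could be read.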

Other observations

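The 25 genes were also measured after 48 h with both inhibitors together (Ibr + AS), at the same doses. NEBL was at 0.717, 1.07 and 1.09 CPM with Ibr + AS, below each of the Ibr libraries and within or below the range of the AS libraries. MTSS1 was at 36.8, 41.0 and 35.3 CPM, above every Ibr library, and TMEM71 at 41.4, 55.3 and 48.1 CPM, also above every Ibr library. SQSTM1, which was lower with Ibr than with AS, was at 217, 231 and 222 CPM with Ibr + AS, above all libraries of either inhibitor. MYO1A was at 1.52, 2.23 and 1.43 CPM, in or above the range of the AS libraries. SLA was at 17, 14.7 and 15.5 CPM, within the range of the Ibr libraries. These genes were picked from the 25 after their values were seen.

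Of genes with a mean above 500 CPM, 1 had an absolute log2 FC above 1, and it has no paired symbol. It was at 1020, 93.3 and 6770 CPM with Ibr and 733, 44.9 and 55.3 CPM with AS, so that libraries within each group differed far more than the groups did, and it did not pass (log2 FC 3.44 ± 1.08, adjusted p = 0.148). It was chosen after its values were seen.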
